A study of Homo sapiens with 10 samples.

Results

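The genes described here are the 3 transcription factors TFEB, TFE3 and MITF of the MiT/TFE family, folliculin (FLCN) with its partners FNIP1 and FNIP2, the Rag GTPase RRAGD, the lysosomal channel MCOLN1 and the membrane glycoprotein GPNMB. They were chosen by gene name, 9 of the 35606 genes listed for each sample. The rule also sets aside genes under 1 CPM, and none of the 9 was set aside. Earlier results of these data were known when the list was made. RNA-seq values were analysed in 10 samples of QGP-1, a human cell line from a neuroendocrine tumor of the pancreas, 2 in each of 5 groups. In CRISPR interference (CRISPRi), a nuclease-dead Cas9 fused to a repressor is guided to the start of a gene. Stable CRISPRi cells carried either the control guide sgNC, labelled wild type, or the guide sgPIKFYVE_1, labelled PIKFYVE knockdown, and received no drug; the knockdown is represented by that single guide. Wild-type cells received DMSO, apilimod at 1 µM, or Torin1 at 100 nM. Apilimod inhibits PIKfyve, the kinase that makes a lysosomal phosphoinositide, and Torin1 inhibits mTOR in both of its complexes. The labels give 24 h for both drugs and no time for DMSO, whereas the text of the study gives a shorter exposure. None of the sources says whether 2 samples of a group came from separate cultures, so the p-values below measure the spread between these samples, which may be technical. In such bulk samples, fewer cells of a kind and less RNA per cell cannot be told apart.

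MiT/TFE factors bind E-box sequences and switch on genes for lysosomes and autophagy. In fed cells, mTOR complex 1 on the lysosome phosphorylates them and they are held in the cytoplasm by adaptor proteins of the YWHA and SFN family; when that phosphorylation is lost they enter the nucleus. Folliculin, bound to FNIP1 or FNIP2, stimulates GTP hydrolysis by RagC and RagD, which lets the Rag GTPases present TFEB and TFE3 to the kinase. FLCN, FNIP1, FNIP2, RRAGD and MCOLN1 are themselves textbook targets of these factors, so the pathway holds a feedback loop. These genes are examples, named with earlier results of these data known, and are the same 5 that were higher after knockdown below. They are not a full list of the targets among the genes described, and their values do not stand for all targets. RNA levels do not report on the phosphorylation or location of the factors.

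RefSeq promoter windows on GRCh38.p14 were found for 8 of the 9 genes, 13 windows in all, each holding 250 bases before and 50 bases after an annotated start. No window was found for RRAGD, so its promoter was not searched. All windows were searched on both strands for the E-box CACGTG, for the palindrome TCACGTGA, a longer form of the same site that overlaps it, for that palindrome with a further G before and C after it (the CLEAR element of lysosomal genes), and for TCATGTG, the core of the M-box that MITF binds in pigment cells. The 250 bases before the start are shown, from 5′ to 3′ in the direction of the gene, for MCOLN1 and FNIP1, the genes whose windows held CACGTG, for FLCN, which held none of the 4, and for GPNMB, which held the M-box core. Capitals mark CACGTG and, on the opposite strand, the M-box core read as CACATGA.
MCOLN1 promoter, chr19:7522374-7522623, forward strand: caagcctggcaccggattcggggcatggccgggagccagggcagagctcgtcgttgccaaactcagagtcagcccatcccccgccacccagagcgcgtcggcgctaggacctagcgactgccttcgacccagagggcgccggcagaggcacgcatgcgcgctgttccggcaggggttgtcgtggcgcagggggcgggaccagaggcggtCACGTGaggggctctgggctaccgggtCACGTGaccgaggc
FNIP1 promoter, chr5:131797018-131797267, reverse strand: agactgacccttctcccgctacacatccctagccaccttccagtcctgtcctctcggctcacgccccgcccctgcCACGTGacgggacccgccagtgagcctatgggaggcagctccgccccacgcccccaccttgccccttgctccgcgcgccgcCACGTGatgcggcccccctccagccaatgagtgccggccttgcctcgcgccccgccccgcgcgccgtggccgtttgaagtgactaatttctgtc
FLCN promoter, chr17:17237169-17237418, reverse strand: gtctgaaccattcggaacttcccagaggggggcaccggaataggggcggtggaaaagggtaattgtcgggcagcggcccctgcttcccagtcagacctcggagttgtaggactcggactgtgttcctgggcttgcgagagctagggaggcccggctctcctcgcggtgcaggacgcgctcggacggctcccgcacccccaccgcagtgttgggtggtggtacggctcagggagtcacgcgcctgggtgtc
GPNMB promoter, chr7:23246525-23246774, forward strand: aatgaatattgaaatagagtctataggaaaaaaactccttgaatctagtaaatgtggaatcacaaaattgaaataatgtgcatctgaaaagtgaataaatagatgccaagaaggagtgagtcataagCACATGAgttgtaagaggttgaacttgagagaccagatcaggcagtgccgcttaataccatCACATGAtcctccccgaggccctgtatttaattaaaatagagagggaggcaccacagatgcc

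In the MCOLN1 window, CACGTG began 41 and 14 bases before the start, and both lay within TCACGTGA, the second of them within its longer form with a further G and C. The FNIP1 window held CACGTG 175 and 94 bases before the start. One of the windows of FNIP2 held the M-box core 142 bases before its start, and GPNMB held it 123 and 62 bases before. Among all 35116 windows of the same length, 7.26% held CACGTG, 0.980% TCACGTGA, 0.353% its longer form and 2.92% the M-box core. The windows of TFEB, TFE3 and MITF held none of these motifs. A match of letters does not show that a factor binds there.

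The knockdown could be checked on its target. PIKFYVE was at 101 and 97.5 CPM with sgNC and at 10.9 and 12.5 CPM with sgPIKFYVE_1, so that 11.8% of the control mean remained (log2 fold change -2.98, adjusted p = 1.22e-14). The samples held an estimated 9.28 to 13.5 M reads, at which 3 reads correspond to 0.227 to 0.329 CPM, a limit for counting error only. The 10 neuroendocrine markers fixed as a list summed to between 6951 and 11218 CPM in each sample. The 6 macrophage markers summed to between 0.833 and 2.78 CPM, with AIF1 and TYROBP at 0 in all 10 samples, and the 6 fibroblast markers to between 2.01 and 10.4 CPM, with COL3A1 and LUM at 0. All 9 genes described here had a mean of at least 1 CPM in both tables and were tested. Fold changes are differences of log2(CPM + 1), tested with limma, and adjusted p-values use the Benjamini-Hochberg method over all 13591 genes tested for the knockdown or all 13520 tested for the drugs. The added 1 understates the change of genes at low values.

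PIKFYVE knockdown raised FLCN, FNIP1, FNIP2, RRAGD and MCOLN1 and lowered MITF and TFE3. In these 5 increases the means in knockdown cells ran from 1.43 times (FNIP1) to 1.92 times (MCOLN1) those of the control. TFEB and GPNMB did not pass the test. These 5 genes higher and 2 lower stand beside 21.6% of all genes tested that were higher and 20.9% that were lower in this comparison, 42.5% in either direction. The median log2 fold change was 0.51 over the 9 genes and -0.0042 over all genes tested. The share of CPM from mitochondrial genes was also higher in the knockdown samples, at 8.42% and 8.33%, than with sgNC, at 6.91% and 6.90%, and its part in these results was not tested.

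**Figure D1:**
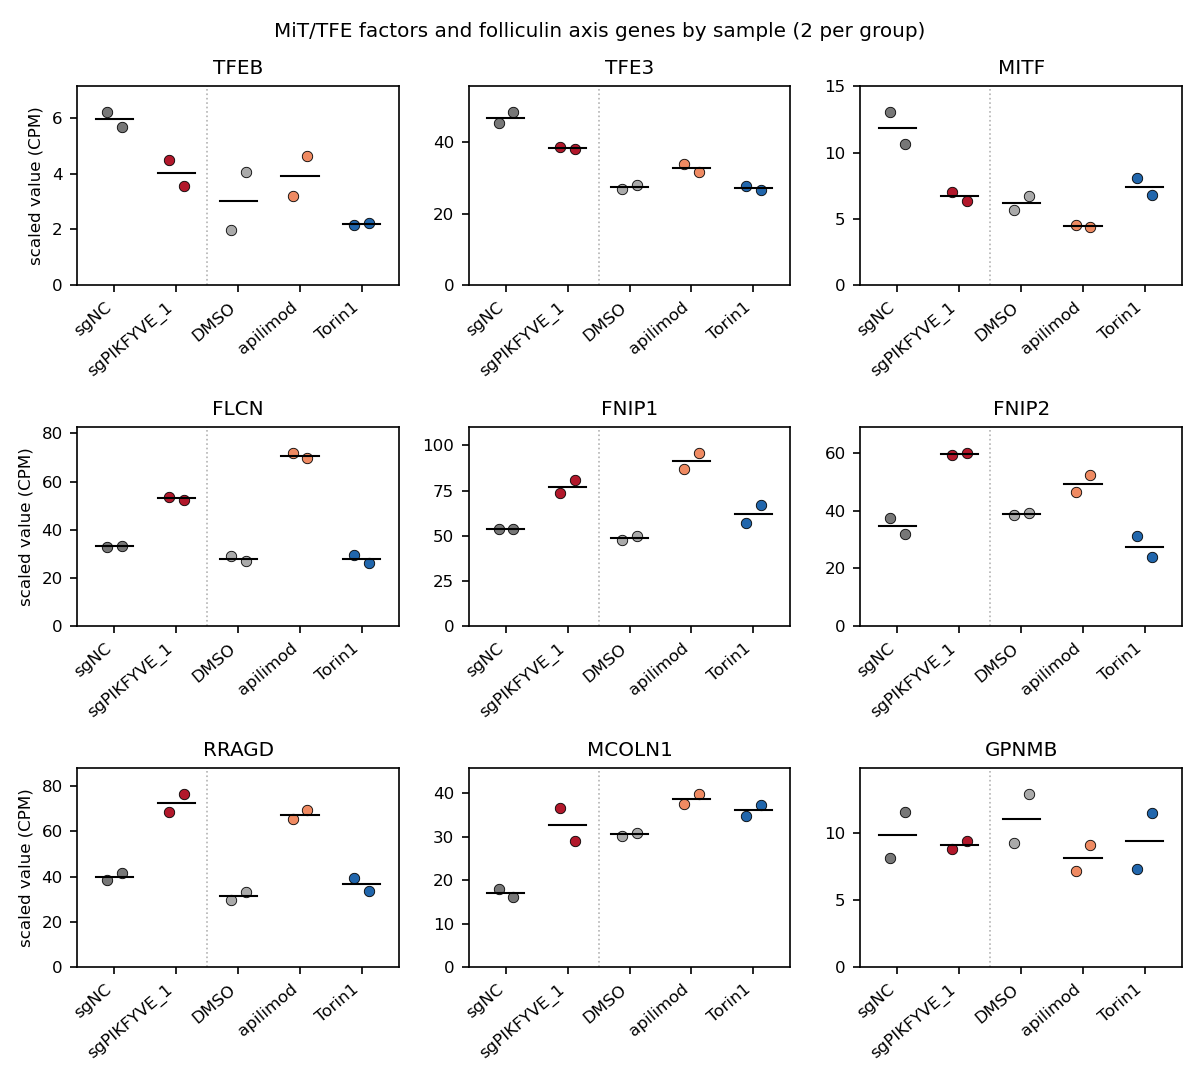
Scaled expression (CPM) of the 9 genes in each of the 10 samples. Points are samples, horizontal lines are group means, and the dotted line separates the knockdown table from the drug table, which were normalized separately. In FLCN, both knockdown samples lie above both sgNC samples and both apilimod samples lie near 70 CPM, above all DMSO and Torin1 samples.

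Folliculin complex genes were higher in both knockdown samples than in both controls. FLCN (ENSG00000154803.13; chromosome 17, from 17212212 to 17237188, reverse strand, GRCh38 in GENCODE release 29, as are all gene positions here) had values of 33.0 and 33.2 CPM with sgNC and 53.7 and 52.4 CPM with sgPIKFYVE_1. The replicates of each group were close together and the groups did not overlap. On the log2 scale FLCN rose by 0.66 with a standard error of 0.085 (adjusted p = 3.86e-06). FLCN overlaps MPRIP on the opposite strand, an actin-binding protein gene with up to 161 CPM in these samples, and counting by strand is not stated. MPRIP moved the other way (log2 fold change -0.27, adjusted p = 1.16e-03).

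The FLCN partners FNIP1 and FNIP2, which bind folliculin and AMPK, changed with it. FNIP1 (ENSG00000217128.12; chromosome 5, from 131641714 to 131797063, reverse strand) was at 53.7 and 54.0 CPM in control cells and at 73.4 and 80.8 CPM after knockdown. FNIP2 (ENSG00000052795.13; chromosome 4, from 158769138 to 158908049, forward strand) was at 37.4 and 32.0 CPM in control cells and at 59.5 and 60.1 CPM after knockdown. Both groups were fully separated in both genes. The log2 fold change was 0.51 for FNIP1 (standard error 0.075, adjusted p = 1.91e-05) and 0.77 for FNIP2 (standard error 0.089, adjusted p = 1.04e-06).

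RRAGD, a GTPase on which folliculin acts, was also higher after knockdown. RRAGD (ENSG00000025039.14; chromosome 6, from 89364636 to 89412270, reverse strand) was at 38.3 and 41.4 CPM with sgNC and at 68.6 and 76.6 CPM with sgPIKFYVE_1. The lower knockdown sample was well above the higher control sample. RRAGD rose by 0.85 ± 0.083 on the log2 scale (SE, adjusted p = 1.12e-07).

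MCOLN1 encodes the lysosomal calcium channel whose activity releases calcium for calcineurin, the phosphatase that acts on TFEB. MCOLN1 (ENSG00000090674.16; chromosome 19, from 7522626 to 7534009, forward strand) was at 18.1 and 16.1 CPM with sgNC and at 36.7 and 28.9 CPM with sgPIKFYVE_1. The groups did not overlap although, relative to their level, the knockdown samples differed more from each other than in the genes above. The log2 fold change of 0.90 was the highest of the 9 genes in this comparison (standard error 0.125, adjusted p = 1.06e-05). MCOLN1 overlaps PNPLA6 on the same strand, a phospholipase gene with up to 64.8 CPM that was lower after knockdown (log2 fold change -0.32, adjusted p = 4.72e-03).

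The 3 factors themselves were all lower in both knockdown samples than in both controls. MITF (ENSG00000187098.15; chromosome 3, from 69739435 to 69968337, forward strand), best known from pigment cells, was at 13.1 and 10.7 CPM with sgNC and at 7.05 and 6.33 CPM with sgPIKFYVE_1. It fell to 56.4% of the control mean (log2 fold change -0.74, standard error 0.174, adjusted p = 0.0020). TFE3 (ENSG00000068323.17; chromosome X, from 49028726 to 49043486, reverse strand) was at 45.3 and 48.5 CPM and then at 38.7 and 38.0 CPM. That smaller decrease, to 81.7% of the control mean, corresponded to -0.28 on the log2 scale (SE 0.086, adjusted p = 0.0122). The TFE3 call was lost without sgNC replicate 2 (log2 fold change -0.24, adjusted p = 0.137) and without the variance trend (adjusted p = 0.0566). TFEB (ENSG00000112561.18; chromosome 6, from 41683978 to 41736259, reverse strand) was at 6.21 and 5.68 CPM with sgNC and at 4.49 and 3.56 CPM with sgPIKFYVE_1. Its difference did not pass the test (log2 fold change -0.47, adjusted p = 0.0829), with groups that did not overlap.

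GPNMB, a glycoprotein of melanosomes and lysosomes that is induced in several lysosomal disorders, overlapped between the groups. GPNMB (ENSG00000136235.16; chromosome 7, from 23235967 to 23275108, forward strand) was at 8.15 and 11.5 CPM with sgNC and at 8.77 and 9.38 CPM after knockdown. The log2 fold change was -0.09, with a 95% confidence interval from -0.46 to 0.29 (adjusted p = 0.728). In all, 5 of the 9 genes were higher and 3 lower with no overlap of the groups, beside 35.4% and 35.2% of all genes tested, 70.6% in either direction.

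Apilimod raised FLCN, FNIP1, RRAGD and MCOLN1, and none of the 9 genes fell past the threshold. FLCN changed most, to 2.52 times the DMSO mean, and MCOLN1 least, to 1.27 times. Far fewer genes were called with apilimod than with the knockdown, 5.75% higher and 2.79% lower, 8.54% in either direction, beside the 4 of 9 here. The median log2 fold change was 0.33 over the 9 genes and -0.0057 over all genes tested. The knockdown and drug tables were normalized separately, so their values stand side by side and no difference between them was tested.

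FLCN was at 28.9 and 27.2 CPM with DMSO and at 71.9 and 69.7 CPM with apilimod. The separation was wide against the spread within either group. With 1.31 ± 0.093 on the log2 scale (SE, adjusted p = 3.25e-07), the change in FLCN was the 80th highest of the 13520 genes tested. RRAGD followed, at 29.8 and 33.2 CPM with DMSO and at 65.6 and 69.4 CPM with apilimod (log2 fold change 1.08, standard error 0.097, adjusted p = 3.86e-06). FNIP1 was at 47.5 and 50.1 CPM with DMSO and at 86.6 and 95.8 CPM with apilimod (log2 fold change 0.89, standard error 0.089, adjusted p = 1.21e-05). In these 3 genes the lowest apilimod value was more than 1.5 times the highest DMSO value. MPRIP, which overlaps FLCN, was not called with apilimod (log2 fold change 0.059, adjusted p = 0.671).

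MCOLN1 and FNIP2 were nearer to the threshold. MCOLN1 was at 30.3 and 30.9 CPM with DMSO and at 37.5 and 39.9 CPM with apilimod (log2 fold change 0.33, standard error 0.091, adjusted p = 0.0388). PNPLA6, which overlaps MCOLN1, had up to 42.4 CPM in the drug samples, and its part in the MCOLN1 values was not tested. FNIP2 was at 38.6 and 39.4 CPM with DMSO and at 46.6 and 52.4 CPM with apilimod (log2 fold change 0.33, 95% confidence interval 0.09 to 0.58, adjusted p = 0.101). The groups did not overlap in MCOLN1 or in FNIP2. In the fit on the apilimod and DMSO groups alone FNIP2 passed the test. The MCOLN1 call was lost without any one of DMSO replicate 1 (adjusted p = 0.205), DMSO replicate 2 (0.159), Apilimod replicate 1 (0.0887) and Apilimod replicate 2 (0.184), and FNIP2 passed without Torin1 replicate 1 (0.0330) or Torin1 replicate 2 (0.0298), which left the apilimod and DMSO values unchanged.

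The factors and GPNMB did not pass the test with apilimod. TFE3 was at 27.0 and 28.0 CPM with DMSO and at 33.9 and 31.7 CPM with apilimod (log2 fold change 0.24, adjusted p = 0.158). MITF was at 5.65 and 6.73 CPM with DMSO and at 4.50 and 4.38 CPM with apilimod (log2 fold change -0.40, adjusted p = 0.212). Neither gene's groups overlapped, TFE3 with higher and MITF with lower values under apilimod. TFEB was at 1.99 and 4.06 CPM with DMSO and at 3.20 and 4.65 CPM with apilimod (log2 fold change 0.32, 95% confidence interval -0.25 to 0.89). GPNMB was at 9.22 and 12.9 CPM with DMSO and at 7.18 and 9.09 CPM with apilimod (log2 fold change -0.39, 95% confidence interval -0.84 to 0.06). With no overlap, 6 of the 9 genes were higher and 2 lower, beside 24.8% and 25.9% of all genes tested, 50.7% in either direction.

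**Figure D2:**
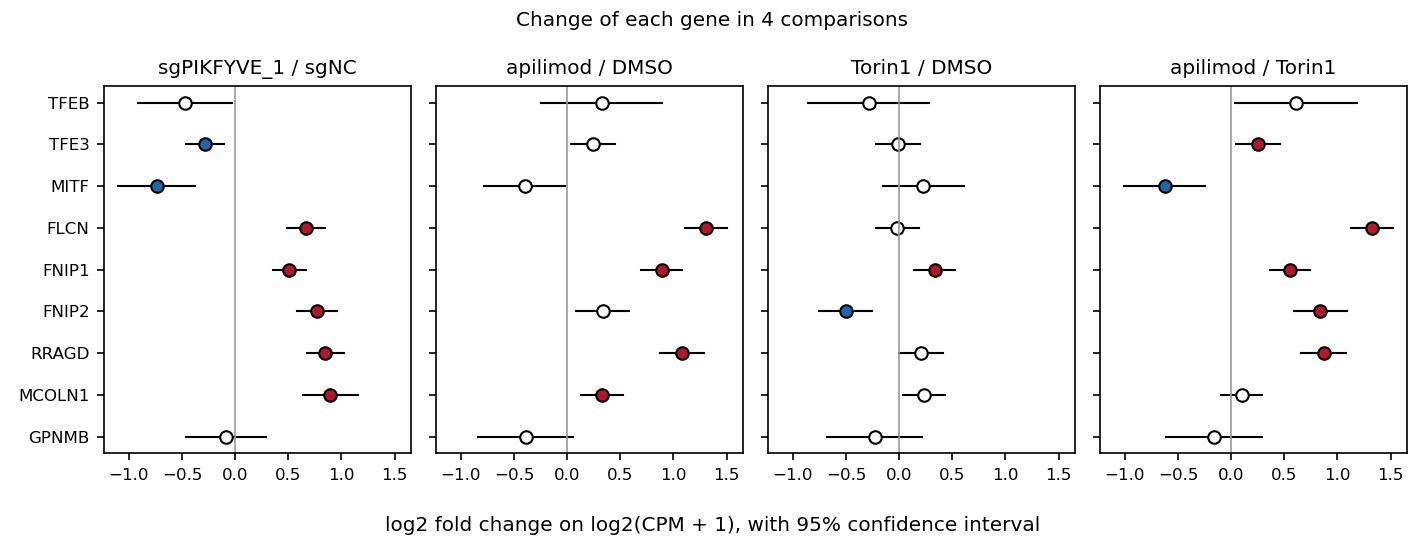
Log2 fold change of the 9 genes, on log2(CPM + 1), in 4 comparisons, with 95% confidence intervals. Red points passed the adjusted p threshold of 0.05 as higher, blue points as lower, and open points did not pass. FLCN, RRAGD and FNIP1 lie to the right with knockdown, with apilimod, and with apilimod against Torin1, whereas with Torin1 against DMSO FLCN lies at -0.02.

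Torin1 raised FNIP1 and lowered FNIP2, and the other 7 genes did not pass. Of all genes tested, 16.6% were higher and 21.8% lower with Torin1, 38.5% in either direction, beside the 2 of 9 here. FNIP1 was at 56.8 and 67.1 CPM with Torin1 (log2 fold change 0.33, standard error 0.089, adjusted p = 0.00933), above both DMSO samples. FNIP2 was at 31.1 and 23.8 CPM, below both DMSO samples, and its mean was 70.4% of the DMSO mean (log2 fold change -0.50, standard error 0.116, adjusted p = 0.00367). The 2 partners of folliculin thus passed the test in opposite directions with the same drug. Without Torin1 replicate 2 the FNIP1 call was lost (log2 fold change 0.22, adjusted p = 0.0987), and FNIP2 was called with a smaller value of -0.32. The FNIP1 call was also lost without DMSO replicate 1 (adjusted p = 0.0702).

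FLCN was at 29.4 and 26.0 CPM with Torin1, overlapping DMSO (log2 fold change -0.02, 95% confidence interval -0.22 to 0.18, adjusted p = 0.903). RRAGD was at 39.3 and 33.9 CPM (log2 fold change 0.21, adjusted p = 0.106) and passed without Torin1 replicate 2 (adjusted p = 0.0383). MCOLN1 was at 34.8 and 37.3 CPM (log2 fold change 0.23, adjusted p = 0.0598). For RRAGD and MCOLN1 both Torin1 samples lay above both DMSO samples. MITF was at 8.07 and 6.76 CPM (log2 fold change 0.23, adjusted p = 0.340), and TFE3 at 27.9 and 26.7 CPM (-0.01, adjusted p = 0.943). TFEB was at 2.14 and 2.24 CPM, and GPNMB at 7.27 and 11.5 CPM, both overlapping DMSO (log2 fold changes -0.29 and -0.23). The groups did not overlap for 4 genes higher and 1 lower, beside 32.7% and 36.6% of all genes tested, 69.3% in either direction. The median log2 fold change of the 9 genes was -0.01, and that of all genes tested was -0.012.

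Apilimod and Torin1 share their DMSO samples, so the drugs were compared directly with each other. FLCN, RRAGD, FNIP2, FNIP1 and TFE3 were higher with apilimod than with Torin1 and MITF was lower, beside 26.2% and 20.5% of all genes tested, 46.7% in either direction. FLCN differed most, with a mean 2.55 times as high with apilimod (log2 difference 1.32, standard error 0.093, adjusted p = 7.02e-08). RRAGD had a log2 difference of 0.87 (adjusted p = 6.28e-06), FNIP2 of 0.84 (adjusted p = 4.75e-05) and FNIP1 of 0.55 (adjusted p = 1.73e-04). In each of these 4 genes both apilimod samples were above both Torin1 samples.

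MITF was lower with apilimod than with Torin1 by a log2 difference of -0.63 (adjusted p = 0.0102). That call was lost without Torin1 replicate 1 and also without the filter on low values. With each sample left out the log2 difference of MITF ranged from -0.74 to -0.51. The TFE3 difference of 0.25 passed narrowly (adjusted p = 0.0444) and was lost under 9 of 12 other settings, including the removal of any one of the 6 samples (log2 difference 0.21 to 0.30, adjusted p up to 0.202). TFEB did not pass (log2 difference 0.61, adjusted p = 0.0740), which held in 8 of 12 other settings. It passed with quantile normalization, with the replicate number as a block, in the fit on the 2 compared groups alone and without DMSO replicate 1. For MCOLN1 the log2 difference was 0.10, with a 95% confidence interval from -0.10 to 0.29, and for GPNMB it was -0.16, from -0.61 to 0.29. The groups did not overlap for 7 genes higher and 1 lower, beside 38.4% and 34.1% of all genes tested, 72.5% in either direction. The study's additional cutoff, a log2 change of at least 1.5 in size, was reached by none of the 9 genes in any of the 4 comparisons, whereas 141, 62, 49 and 175 of all genes reached it.

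Levels can be compared between genes only per length of transcript. Divided by the exonic length of the gene in kb, the DMSO means ran from 7.72 CPM per kb for MCOLN1 through TFE3 at 6.42, RRAGD at 6.21, FNIP1 at 6.14, FNIP2 at 3.59, FLCN at 2.86 and GPNMB at 1.83 to MITF at 0.862 and TFEB at 0.536. The samples of TFE3 and RRAGD overlapped, as did those of RRAGD and FNIP1, and the other neighbours were apart. With sgNC the order was TFE3 at 10.95 CPM per kb, RRAGD at 7.86, FNIP1 at 6.78, MCOLN1 at 4.32, FLCN at 3.38, FNIP2 at 3.19, MITF at 1.65, GPNMB at 1.63 and TFEB at 1.05, and FLCN overlapped FNIP2 as MITF overlapped GPNMB. After knockdown RRAGD came first at 14.3 CPM per kb, and with apilimod it came first at 13.3. The places of FLCN and RRAGD depend on the length used. With the median length of the coding transcripts FLCN came 2nd with DMSO and sgNC. FLCN came 1st with apilimod and sgPIKFYVE_1, at 26.6 and 19.9 CPM per kb, where RRAGD came 3rd and 2nd.

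TFE3 was the most abundant of the 3 factors in every sample on this scale. Its share of the summed CPM per kb of TFE3, MITF and TFEB lay between 78.4% and 86.9%. MITF held 6.88% to 14.04%, with the lowest shares in the apilimod samples at 6.88% and 6.91% and the highest in Torin1 replicate 1. TFEB held 4.74% to 9.32%. The CPM ratio of TFE3 to MITF, not divided by length, was 3.47 and 4.55 with sgNC and 5.49 and 6.003 with sgPIKFYVE_1, and it was 4.77 and 4.17 with DMSO and 7.53 and 7.23 with apilimod.

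**Figure D3:**
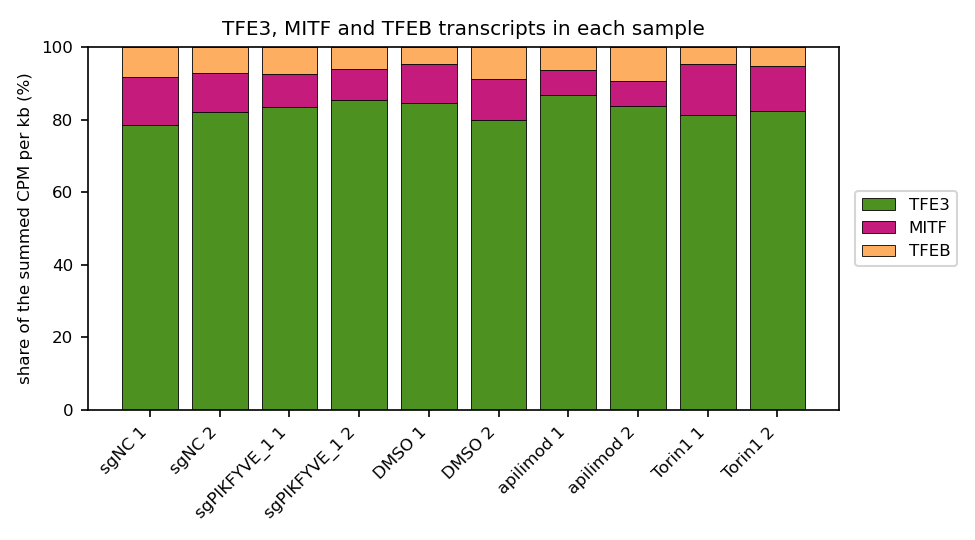
Share of each MiT/TFE factor in the summed CPM per kb of exonic length of TFE3, MITF and TFEB, as a percentage, in each of the 10 samples. TFE3 takes 78.4% to 86.9% of each bar, and MITF is smallest in the 2 apilimod samples.

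Ratios of CPM within a sample show how the genes moved against each other from group to group, and not which of them was the more abundant. FLCN over TFE3, in CPM, was 0.727 and 0.686 with sgNC and 1.39 and 1.38 with sgPIKFYVE_1. The same ratio was 1.07 and 0.969 with DMSO, 2.12 and 2.199 with apilimod, and 1.06 and 0.973 with Torin1. The ratio was thus higher in both knockdown samples than in both sgNC samples, and higher in both apilimod samples than in all DMSO and Torin1 samples. FNIP2 over FNIP1 was 0.812 and 0.786 with DMSO, 0.538 and 0.547 with apilimod, and 0.548 and 0.355 with Torin1. With each drug this ratio was below both DMSO samples, whereas after knockdown it was 0.810 and 0.744, above the sgNC values of 0.696 and 0.594. RRAGD over its paralog RRAGC was 1.39 and 1.23 with sgNC and lower in both knockdown samples, at 1.13 and 1.19. It was 1.009 and 1.12 with DMSO, 1.09 and 1.02 with apilimod, and 1.64 and 1.28 with Torin1. Both Torin1 values lay above both DMSO values, and the apilimod values overlapped those of DMSO.

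The other Rag GTPases, the Ragulator scaffold that anchors them to the lysosome, and SLC38A9, a lysosomal arginine sensor, formed a list of 9 genes. With knockdown 4 were higher and none lower, beside 21.6% and 20.9% of all genes tested, with a median log2 fold change of 0.04. With apilimod 3 were higher and none lower (median 0.33), beside 5.75% and 2.79%. With Torin1 none was higher and 3 were lower (median -0.12), beside 16.6% and 21.8%. RRAGC, the other GTPase on which folliculin acts, was at 27.5 and 33.7 CPM with sgNC and at 60.5 and 64.2 CPM with sgPIKFYVE_1 (log2 fold change 1.008, adjusted p = 8.37e-08). It was at 29.5 and 29.6 CPM with DMSO and at 60.2 and 68.0 CPM with apilimod (log2 fold change 1.09, adjusted p = 3.33e-06). RRAGC and RRAGD were thus both higher in both comparisons. The scaffold gene LAMTOR1 rose by 0.48 with knockdown and by 0.36 with apilimod on the log2 scale. LAMTOR3 rose by 0.66 with knockdown and LAMTOR4 by 0.33 with apilimod. With Torin1, RRAGA, whose product pairs with RagC or RagD, fell by 0.50, LAMTOR5 by 0.27 and LAMTOR4 by 0.25.

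Textbook targets of TFEB and TFE3 other than the 9 genes formed a list of 34, all of them tested, RRAGC included. With knockdown 24 were higher and 3 lower (median log2 fold change 0.41), beside 21.6% and 20.9% of all genes tested. With apilimod 19 were higher and 1 lower (median 0.27), beside 5.75% and 2.79%. With Torin1 12 were higher and 5 lower (median 0.13), beside 16.6% and 21.8%. NEU1, the lysosomal sialidase, had the highest value in all of these comparisons, with 9.34 and 9.54 CPM with sgNC and 27.7 and 27.0 CPM with sgPIKFYVE_1. It was at 1.04 and 2.91 CPM with DMSO, 26.3 and 23.9 CPM with apilimod and 6.55 and 5.27 CPM with Torin1. NEU1 lies in the MHC region, where alternative haplotype copies can split reads, and its values are uncertain. With knockdown SQSTM1, the autophagy receptor p62 that the study follows, rose by 1.19 and VPS18, a tethering factor of late endosomes, by 1.08 on the log2 scale. SQSTM1 was also called higher with apilimod (0.61) and Torin1 (0.30), whereas VPS18 was higher with apilimod (0.68) and lower with Torin1 (-0.28). The hydrolase genes SGSH, GUSB and CTSB fell by 0.39, 0.39 and 0.25. With apilimod PPARGC1A, a coactivator of mitochondrial genes, rose by 1.53 (1.03 with knockdown) and CTSB was the one that fell, by 0.63. With Torin1 CTSF, a lysosomal protease, rose by 0.65 and PPARGC1A by 0.64, while GLA, a lysosomal galactosidase, fell by 0.62, ATP6V0D1, a proton pump subunit, by 0.49 and CD63, a lysosomal membrane protein, by 0.46. Between the drugs, 19 were higher and 5 lower with apilimod, beside 26.2% and 20.5% of all genes tested, ATP6V0D1 among the higher (log2 difference 1.14) and CTSB among the lower (-0.66).

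**Figure D4:**
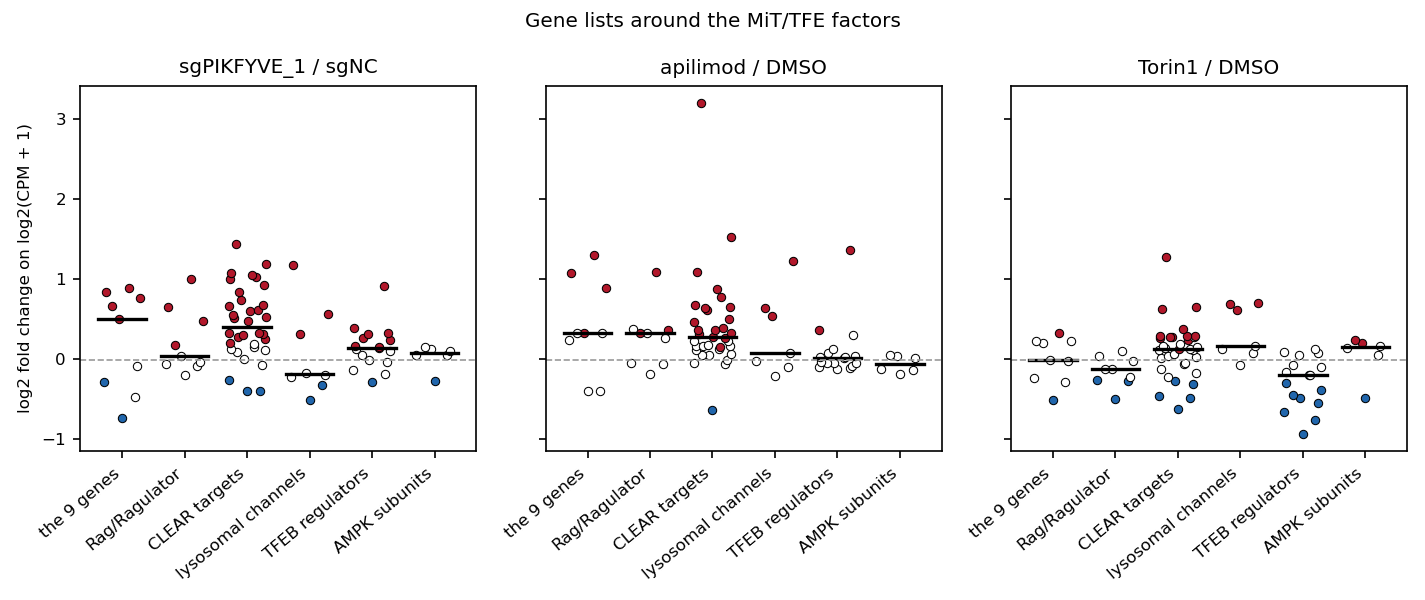
Log2 fold change, on log2(CPM + 1), of each tested gene in the 9 genes described and 5 lists around them, for knockdown, apilimod and Torin1. Red and blue points passed the adjusted p threshold of 0.05 as higher and lower, open points did not, and bars are medians. The bar of the lysosomal target list lies at 0.41, 0.27 and 0.13, and the list of TFEB regulators has its lowest points with Torin1.

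Regulators of the factors (the remaining family member TFEC, calcineurin, the YWHA and SFN adaptors, nuclear export and kinases) formed a list of 18, of which 17 were tested, since TFEC was under 1 CPM. With knockdown 9 were higher and 1 lower (median log2 fold change 0.14), beside 21.6% and 20.9% of all genes tested. With apilimod 2 were higher and none lower (median 0.01), beside 5.75% and 2.79%. With Torin1 none was higher and 9 were lower (median -0.19), beside 16.6% and 21.8%. SFN, an adaptor that holds phosphorylated partners, was at 33.2 and 36.4 CPM with sgNC and at 69.4 and 64.3 CPM with sgPIKFYVE_1. It was at 39.3 and 38.9 CPM with DMSO, 109 and 96.5 CPM with apilimod and 18.6 and 21.4 CPM with Torin1. The drugs thus moved SFN in opposite directions, with a direct log2 difference of 2.30 (adjusted p = 2.22e-10). YWHAG and YWHAH, adaptors of the same family, rose by 0.39 and 0.32 with knockdown and fell by 0.76 and 0.66 with Torin1. GSK3B, a kinase that phosphorylates TFEB, rose by 0.37 with apilimod and by 0.27 with knockdown. AKT1 fell by 0.28 with knockdown and by 0.30 with Torin1.

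AMPK is the energy-sensing kinase that folliculin and its partners bind. Of its 7 subunit genes 6 were tested, PRKAG3 being at 0 in all samples. With knockdown none was higher and 1 lower, beside 42.5% of all genes tested in either direction: PRKAB2 fell by 0.27 on the log2 scale. None passed with apilimod, beside 8.54% of all genes tested in either direction. With Torin1 2 were higher and 1 lower, 3 of 6 beside 38.5% of all genes tested: PRKAG1 rose by 0.24, PRKAB2 by 0.21, and PRKAG2 fell by 0.48.

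Lysosomal ion channels other than MCOLN1 formed a list of 8. With knockdown 3 were higher and 2 lower, beside 42.5% of all genes tested in either direction. MCOLN2 was under 1 CPM in the drug table. Of the other 7, 3 were higher and none lower with apilimod, beside 8.54% in either direction, and likewise with Torin1, beside 38.5%. MCOLN3, a paralog of MCOLN1, was at 8.07 and 10.5 CPM with sgNC and at 22.4 and 21.7 CPM with sgPIKFYVE_1 (log2 fold change 1.17, adjusted p = 3.07e-06). It was at 13.6 and 13.7 CPM with DMSO, 33.4 and 33.1 CPM with apilimod (log2 fold change 1.22) and 21.9 and 23.3 CPM with Torin1 (0.69). MCOLN3 therefore passed in all 3 comparisons. CLCN7, the lysosomal chloride exchanger, rose by 0.32 with knockdown, 0.64 with apilimod and 0.62 with Torin1, and its subunit OSTM1 rose by 0.57 with knockdown and 0.54 with apilimod. TPCN1, an endolysosomal cation channel, fell by 0.32 with knockdown and rose by 0.71 with Torin1, and the potassium channel TMEM175 fell by 0.51 with knockdown.

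Most pigment-cell targets of MITF were at or near 0 in QGP-1. Of 9 genes, TYR, DCT, MLANA, OCA2, SLC45A2 and TRPM1 were under 1 CPM in both tables, with OCA2 at 0 in all 10 samples. TYRP1 and PMEL, also pigment genes, did not exceed 3.32 CPM in any sample and were not called. MC1R, the melanocortin receptor, was at 45.8 and 47.5 CPM with sgNC and at 24.2 and 24.4 CPM with sgPIKFYVE_1 (log2 fold change -0.91, adjusted p = 2.27e-07). It was at 29.7 and 25.0 CPM with DMSO and at 57.4 and 41.7 CPM with Torin1 (log2 fold change 0.82, adjusted p = 3.64e-04). The MC1R values are uncertain, since the gene overlaps TCF25 on the same strand, which had up to 108 CPM.

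For each of the 9 genes that passed in at least 2 of the 3 comparisons with a control, the genes most alike were found by the root mean square difference of log2(CPM + 1), centred on the controls of each table, over 10 samples and 13235 genes. FNIP1 was most like ELOVL5, a fatty acid elongase, at 0.034, and WIPI1, an autophagy protein, at 0.115. TRIB3, a stress-induced pseudokinase, was among the genes most like FLCN, at 0.147. FNIP2 was most like PPARGC1B, a coactivator, at 0.098, and PPIF, a mitochondrial isomerase, at 0.113. RRAGD was most like CLCN5, an endosomal chloride exchanger, at 0.146, and HS3ST2, a heparan sulfate sulfotransferase, at 0.149. MCOLN1 was most like KLF4, a transcription factor, at 0.1202, and IFIH1, a sensor of viral RNA, at 0.123. The likeness is a description over 10 samples, from libraries that the genes share.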

How the data were processed

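RNA-seq was analysed in 10 QGP-1 samples. Per the labels, ribosomal RNA was depleted, whereas the methods describe oligo(dT) selection. The authors trimmed reads with Trimmomatic, estimated counts per gene and scaled them with the TMM method in edgeR (bcl2fastq 2.20, FastQC, DESeq2 and hg38 are further names in the submitters' processing notes). What they deposited is a normalized signal per gene on the scale of CPM, in a knockdown table and a drug table that were normalized separately; samples sum to between 972493 and 1024332. Whole reads fitted 72.4% to 76.8% of low values (under 2 CPM, tolerance 0.05 reads), which is not enough to rebuild counts, and count models were therefore left out.

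A linear model was fitted to log2(CPM + 1) of every gene whose mean in its table reached 1 CPM (limma 3.58.1, R 4.3.3, moderated with a mean-variance trend), using the 4 samples of the knockdown table or the 6 of the drug table. P-values were adjusted by Benjamini-Hochberg across the whole table, and 0.05 was the limit for a call. The procedure was tested on simulated data of the knockdown design. No 2 replicates were identical or within sampling noise.

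The 9 genes and the gene lists were chosen with earlier results of these data known. The genes named were the 9, PIKFYVE, per list and comparison up to 3 called genes with the highest and up to 3 with the lowest log2 fold change (not all are repeated in the text), and the 2 genes most like each of the 9 that passed in at least 2 comparisons, of which 1 is not reported here. MPRIP, PNPLA6 and TCF25 were added as overlapping genes after their values were seen. Alternatives were a pseudocount of 0.1, no filter, each sample left out, fits on the compared groups alone, no variance trend, quantile normalization, the study's fold cutoff, and the replicate number as a block. The guide sequence was not used here.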

Additional observations from a re-analysis of the deposited data

Results flagged for a closer look

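TFE3 moved in opposite directions in the 2 ways of impairing PIKfyve: the log2 fold change was -0.28 with knockdown, where both samples were below both controls, and 0.24 with apilimod, where both were above both DMSO samples. It was singled out because every sample of each comparison lay on opposite sides. Such separation, in either direction, was common, at 70.6% of all genes tested with knockdown and 50.7% with apilimod. The knockdown call of TFE3 was kept in 7 of 9 other settings. The tables were normalized separately, so the difference between the comparisons was not tested, and the apilimod value did not pass the test on its own (adjusted p = 0.158).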

How the results depend on the processing

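With 9 other settings for the knockdown and 12 for each drug comparison, FLCN, FNIP1, FNIP2, RRAGD, MCOLN1 and MITF kept their calls after knockdown, FLCN, FNIP1 and RRAGD kept theirs with apilimod, and FNIP2 with Torin1. Over the 9 genes and 4 comparisons, 360 values kept direction and side of the threshold, 24 lost a call, 10 gained one and 11 changed sign. The apilimod call of MCOLN1 was lost in 7 of 12 settings, among them no filter (adjusted p = 0.0842), quantile normalization (0.0620) and no variance trend (0.0950).

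Without the variance trend 3709 genes were called for knockdown and 466 for apilimod, and without the filter 565 for apilimod. Whether the replicate numbers shared by the labels pair the samples is not stated. Deviations of same-numbered samples correlated at 0.037 between sgNC and sgPIKFYVE_1 and at 0.043 to 0.104 between the drug groups. Such weak correlations do not settle the pairing, and the reported fits did not use it. With a replicate block 1756 genes were called for apilimod. The block also brought MCOLN1 with Torin1 (adjusted p = 0.0346) and TFEB between the drugs (0.0428) past the threshold and changed no other call among the 9 genes. With quantile normalization 55.1% of the genes called for apilimod were higher, against 67.4% in the reported fit. With Torin1, 1 of the 9 genes passed without the filter and 1 without the trend. With the fold cutoff of 1.5, 141, 62, 49 and 175 genes passed for knockdown, apilimod, Torin1 and the direct comparison, and 0 of the 9.

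Leaving out 1 sample at a time gave 4439 to 5080 genes for knockdown (6 to 7 of the 9), 596 to 1315 for apilimod (3 to 5), 3574 to 5185 for Torin1 (1 to 2) and 5147 to 6032 for the direct comparison (4 to 6). For apilimod 656 genes were called without DMSO replicate 1, 596 without DMSO replicate 2 and 688 without Apilimod replicate 1.

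Small differences changed sign, given here as ranges of the log2 fold change with each sample left out. GPNMB ranged from -0.31 to 0.14 with knockdown (highest without sgNC replicate 2), from -0.53 to 0.066 with Torin1 (without Torin1 replicate 1) and from -0.46 to 0.14 between the drugs (without Torin1 replicate 2). TFEB ranged from -0.056 (without DMSO replicate 1) to 0.70 with apilimod and from -0.67 to 0.094 with Torin1 (without DMSO replicate 2). With Torin1, TFE3 ranged from -0.039 to 0.018 (0.016 without DMSO replicate 2) and FLCN from -0.10 to 0.068 (0.026 without DMSO replicate 1), the highest of each without Torin1 replicate 2, and quantile normalization gave 0.027 and 0.019. The causes were not tested. With 2 samples a group, TFEB, MITF and GPNMB, at 2 to 13 CPM, had the widest intervals of the 9 genes.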

Other observations

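Some markers of the labelled cell type passed the test in these comparisons. Of 10 neuroendocrine markers, 1 was higher and 4 lower with knockdown, beside 42.5% of all genes tested in either direction. With apilimod 1 was higher and 4 lower, beside 8.54%, and with Torin1 6 were higher and 2 lower, beside 38.5%. With knockdown CHGB, a secretory granule protein, was at 2477 and 2586 CPM with sgNC and at 1555 and 1619 CPM with sgPIKFYVE_1 (log2 fold change -0.67). With Torin1 INSM1, a neuroendocrine transcription factor, was at 237 and 249 CPM against 131 and 139 CPM with DMSO (log2 fold change 0.84). NCAM1, an adhesion molecule, was the one that rose with knockdown (0.37) and with apilimod (0.28). The part of these changes in the values of the 9 genes was not tested.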
